A study of Mus musculus with 10 samples.

Results

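*Lag3* and 5 other genes for immune co-signalling molecules were followed through microglia taken from adult mouse brain, from cultured brain slices and from mixed glial cultures *in vitro*. The 6 genes were *Lag3* and *Havcr2*, which encode inhibitory receptors, *Cd274*, *Cd86* and *Cd80*, which encode ligands of the B7 family, and *Cd40*, which encodes a receptor of the TNF receptor superfamily. They were found by name among the 18281 gene symbols of the count tables, and a gene without an entry in a library counted as 0. The set was selected on a measured value, the large fall of *Lag3* *in vitro* against slices, so the values of that comparison are descriptions without a test. *Lag3* itself was tested in no comparison, since all 3 slice groups and the *in vitro* group entered that selection. All 6 genes passed the filter on low counts.

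Microglia were sorted by flow cytometry as CD11b high, CD45 intermediate and DAPI negative cells and sequenced as 10x Genomics 3′ single cell libraries. All mice were C57BL/6, and each of the 5 groups had 2 biological replicates with 1 library each. Adult microglia came from the brains of mice aged 10 to 15 weeks. Slice microglia came from brain slices of pups at postnatal days 1 to 4, cultured for 1 day, 1 week or 3 weeks, with slices pooled where needed. *In vitro* microglia came from mixed glial cultures of cortices at postnatal day 2 and were collected from the medium on day 22. Age at the start, time in culture and isolation differed together between adult and cultured cells, so their parts in a difference cannot be told apart. Slice 3 weeks and *in vitro* cells had a similar age at the start and time in culture. They differed together in brain region, form of culture, medium and collection, and the earlier slices differed from *in vitro* cells in time as well.

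The kept cells held 385373 to 39689540 UMIs (unique molecular identifiers, 1 per captured transcript) per library, and the slice 1 week libraries had 148 and 61 cells. Pairs of libraries shared 0 to 23 barcodes, and at most 2.94% of the smaller library in any pair. The summed level of 10 microglia markers was 44991 to 45585 CPM (UMI counts scaled to a common library total) in adult, 16501 to 20159 in slice 3 weeks, 10154 to 11719 in slice 1 week, 5305 to 5969 in slice 1 day and 3387 to 4070 *in vitro*. Neutrophil markers summed to 7660 to 22049 CPM in slice 1 day and 955 to 39524 in slice 1 week, against at most 8.39 in the other groups. At least 3 of them had a UMI in 139 of 518 and 1007 of 1014 slice 1 day cells (replicates 1 and 2). In slice 1 week this held for 148 of 148 and 1 of 61 cells. Border macrophage markers summed to 2132 to 2270 CPM *in vitro*, 268 to 316 in slice 1 day, 200 to 217 in slice 1 week, 45.5 to 82.0 in slice 3 weeks and 5.74 to 11.1 in adult. Monocyte markers reached 377 CPM in slice 1 day and 869 in slice 1 week, against at most 7.18 elsewhere, and red blood cell markers reached 1686 CPM in an adult and 3093 in a slice 1 day library. The 4 of 10 T and NK cell markers that had a row in the tables stayed at or under 8.33 CPM in sum in every library. The part of these markers in the results was not tested.

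LAG3 is a relative of CD4 that binds MHC class II and restrains T cells, and TIM-3, the product of *Havcr2*, is an inhibitory receptor of T cells and myeloid cells that binds galectin-9. PD-L1, encoded by *Cd274*, engages the inhibitory receptor PD-1, and its gene is a classical target of interferon gamma. CD80 and CD86 deliver the second signal for T cell activation through CD28 and are bound with higher affinity by CTLA-4. CD40 receives CD40 ligand from T cells, signals through TRAF adaptors to NF-kB, and is commonly read with CD86 as a sign of microglial activation.

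In the mm10 annotation *Lag3* lies on chromosome 6 (124904361 to 124911705, minus strand), between *Ptms* and *Cd4*. *Havcr2* lies on chromosome 11 (46454935 to 46481255, plus strand) and *Cd40* on chromosome 2 (165055627 to 165072948, plus strand). *Cd86* (36603869 to 36666081, minus strand) and *Cd80* (38455561 to 38496335, plus strand) share chromosome 16. *Cd274* lies on chromosome 19 (29367455 to 29388095, plus strand), and its annotated start is 65 bases from that of *Plgrkt*, a plasminogen receptor gene on the opposite strand. An antisense gene overlaps *Cd274*, and reads within the overlap can be told apart only where the counting used strand, which is not stated in the sources used here.

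RefSeq promoter windows (250 bases before to 50 after the start, build GRCm38.p6) were available for 3 of the 6 genes and were searched on both strands for 4 motifs. These were the PU.1 site GAGGAAGT, the core of the interferon-stimulated response element (GAAA, any 2 bases, GAAA), the interferon gamma-activated site TTCNNNGAA and the NF-kB consensus. Of 32851 promoters, 3.20%, 3.44%, 8.30% and 8.46% held a match of each motif in turn. The *Havcr2* and *Cd274* windows are printed because the first held the only match and the second holds the start of both *Cd274* and *Plgrkt*. Capitals mark the PU.1 match at bases 243 to 250 of the *Havcr2* window (chr11:46454681-46454980, plus strand) and the 64 bases between both annotated starts in the *Cd274* window (chr19:29367188-29367487, plus strand).
Havcr2: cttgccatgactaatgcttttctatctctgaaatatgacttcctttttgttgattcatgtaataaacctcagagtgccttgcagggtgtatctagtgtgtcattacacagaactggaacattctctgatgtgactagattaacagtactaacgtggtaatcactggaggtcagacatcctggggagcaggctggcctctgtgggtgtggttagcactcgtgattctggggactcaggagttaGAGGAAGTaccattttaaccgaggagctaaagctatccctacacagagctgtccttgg
Cd274: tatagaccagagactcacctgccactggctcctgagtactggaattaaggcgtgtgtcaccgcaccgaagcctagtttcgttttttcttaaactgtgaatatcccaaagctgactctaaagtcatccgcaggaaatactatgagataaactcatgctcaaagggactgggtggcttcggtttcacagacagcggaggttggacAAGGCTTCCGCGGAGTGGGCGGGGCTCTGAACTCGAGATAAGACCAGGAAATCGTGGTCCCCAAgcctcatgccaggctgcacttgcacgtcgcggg
The *Cd274* and *Cd80* windows held none of the 4 motifs in these letters. The *Cd80* window (chr16:38458683-38458982, plus strand) lies inside the annotated gene, so the gene start given above was not searched. A match here is a description of sequence, not of binding.

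*Lag3* was abundant in adult microglia, low early in slice culture, higher after 3 weeks in slices and nearly absent *in vitro*. No library held uncultured microglia of pups, so its level before slice culture is not known. Its level was 669 and 701 CPM in the adult libraries (replicates 1 and 2), 73.1 and 43.4 in slice 1 day, 50.4 and 56.3 in slice 1 week, 306 and 402 in slice 3 weeks, and 0.578 and 0.309 *in vitro*. The *in vitro* levels rested on 18 and 11 UMIs. Adult, slice 3 weeks and *in vitro* libraries did not overlap with each other or with the early slices, while the ranges of slice 1 day and slice 1 week did overlap.

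Between slice times, the fitted log2 difference of *Lag3* (edgeR, ± SE) was 2.62 ± 0.27 from 1 day to 3 weeks and 2.75 ± 0.30 from 1 week to 3 weeks. From 1 day to 1 week it was −0.13 ± 0.30, and 0.27 without slice 1 day replicate 1. Against adult, the fitted differences were −3.57 ± 0.28 in slice 1 day, −3.70 ± 0.30 in slice 1 week, −0.95 ± 0.25 in slice 3 weeks and −10.58 ± 0.39 *in vitro*. *In vitro* against slices, the comparison used to select the genes, they were −7.01 ± 0.36, −6.88 ± 0.39 and −9.63 ± 0.38 for 1 day, 1 week and 3 weeks.

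**Figure D1:**
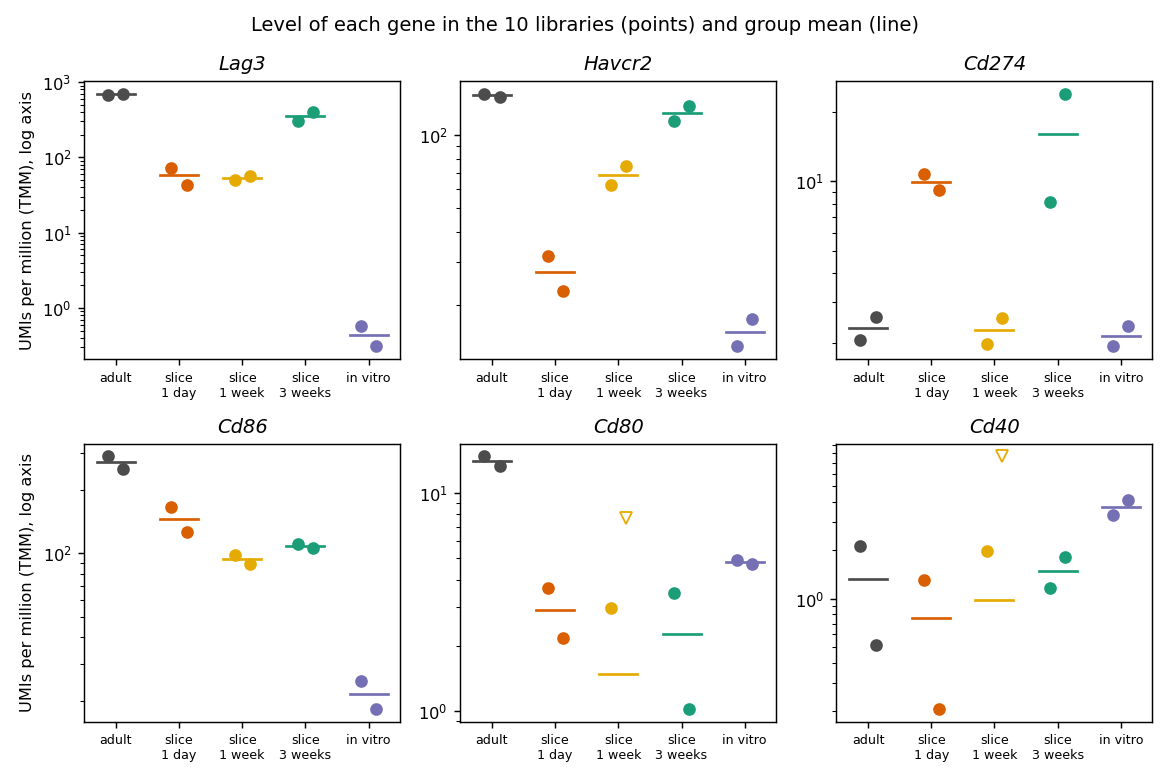
Level of the 6 genes in CPM (TMM-scaled, log axes that differ between panels) in the 10 libraries, with points for libraries, lines for group means and open triangles at the 3-UMI limit for libraries at 0. *Lag3* spans 701 CPM in adult to 0.309 CPM *in vitro*, *Havcr2* climbs through the slice times, and *Cd274* is high in slice 1 day and slice 3 weeks.

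These differences are relative to depth, and cultured cells held more UMIs per cell than adult cells (medians of 5266 to 13966 against 3257 and 1858). Counted as UMIs per cell without depth scaling, the median of all genes was higher than adult by 1.49, 1.10, 1.05 and 2.04 on the log2 scale in slice 1 day, slice 1 week, slice 3 weeks and *in vitro*. On that scale *Lag3* differed from adult by −2.05 in slice 1 day, −2.49 in slice 1 week, 0.14 in slice 3 weeks and −8.41 *in vitro*. A mean adult cell held 2.40 and 1.54 *Lag3* UMIs, a mean slice 3 weeks cell 2.05 and 2.31, and the most seen in 1 *in vitro* cell was 2.

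To compare shares of cells across depths, cells were thinned to 1800 UMIs each. Shallower cells were left out, which kept 1909 of 3527 cells of adult replicate 2 and 3386 of 3799 of adult replicate 1, so the adult shares rest on the deeper cells. After thinning, *Lag3* had a UMI in 68.3% (95% exact binomial interval 66.7 to 69.9) and 74.2% (72.2 to 76.2) of adult cells. The share was 13% and 7.30% in slice 1 day, 9.35% and 9.62% in slice 1 week, 39.5% and 41.9% in slice 3 weeks, and 0.0414% and 0.0373% *in vitro*. Before thinning it was 82.8% and 68.4% in adult, 67.3% and 67.6% in slice 3 weeks, and 0.745% and 0.373% *in vitro*. These intervals cover counting error only, and 2 libraries against 2 cannot give a permutation p under 0.33, so shares were not tested.

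In slice 1 day, cells with over 2% of their UMIs from neutrophil markers, which should lack *Lag3*, served as a measure of background. *Lag3* had a UMI in 0 of 68 of them in replicate 1 and in 6 of 110 (5.45%) in replicate 2, at median depths of 2224 and 4925 UMIs. For the first, a limit of 3 cells would be a share of 4.41%, which is not the bound of an exact binomial interval. Among the remaining cells it had a UMI in 33.6% and 28.9%, at median depths of 6986 and 8868. *In vitro*, no population was set apart that should lack *Lag3*, so expression in a few cells and free RNA cannot be told apart there.

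**Figure D2:**
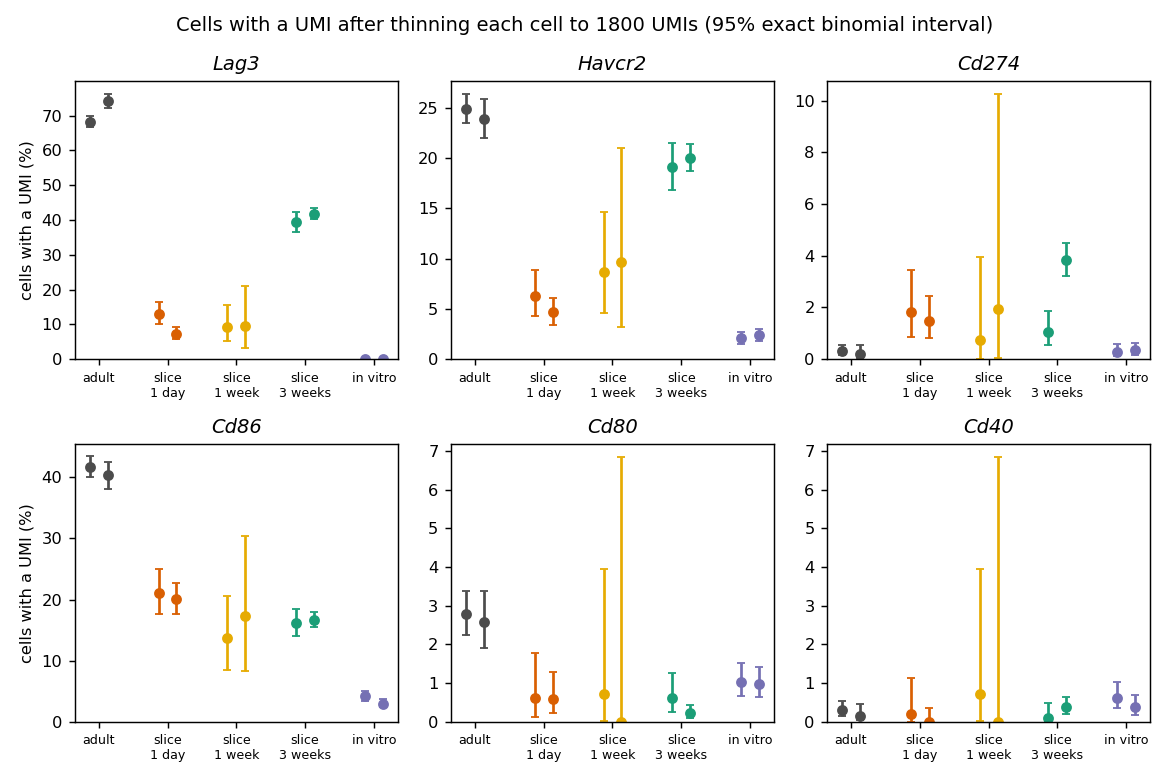
Share of cells with a UMI of each gene after thinning each cell to 1800 UMIs, per library (points, replicate 1 left of replicate 2) with 95% exact binomial intervals that cover counting error only. *Lag3* is seen in 39.5% and 41.9% of slice 3 weeks cells against 13% and 7.30% of slice 1 day cells, and wide intervals mark the slice 1 week libraries.

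*Havcr2*, the other inhibitory receptor, moved through the slice times in steps and ended in slice 3 weeks near its adult level. It was at 148 and 143 CPM in adult, 31.7 and 22.9 in slice 1 day, 62.3 and 74.2 in slice 1 week, 114 and 131 in slice 3 weeks, and 13.5 and 17.5 *in vitro*. No pair of groups overlapped. Against adult it fell by 2.44 ± 0.20 on the log2 scale in slice 1 day (edgeR quasi-likelihood test, adjusted p = 6.03e-06), by 1.12 ± 0.21 in slice 1 week (adjusted p = 0.0032) and by 3.23 ± 0.20 *in vitro* (adjusted p = 4.9e-07). In slice 3 weeks the difference was −0.25 (95% interval −0.64 to 0.15, adjusted p = 0.306). As UMIs per cell, the signs of the slice 1 week and slice 3 weeks differences turned, to 0.080 (adjusted p = 0.88) and to 0.84, which passed the test as higher (adjusted p = 0.0306). The slice 1 week call ended without slice 1 week replicate 1 (adjusted p = 0.0838).

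Within slice culture *Havcr2* rose from 1 day to 1 week by 1.31 ± 0.23 on the log2 scale (adjusted p = 0.00708) and from 1 day to 3 weeks by 2.19 ± 0.20 (adjusted p = 9.12e-05). From 1 week to 3 weeks it rose by 0.88 ± 0.22 (adjusted p = 0.0424). The call between 1 day and 1 week ended without slice 1 day replicate 2 or slice 1 week replicate 1 (adjusted p up to 0.0643). That between 1 week and 3 weeks ended when any of 5 libraries was left out, adult replicates 1 and 2, slice 1 week replicates 1 and 2 and slice 3 weeks replicate 2 (adjusted p up to 0.379). Both calls also ended as UMIs per cell (adjusted p = 0.109 and 0.377). The first ended with thinned cells, at 0.76 (adjusted p = 0.298), and the second with the replicate number as a block (0.87, adjusted p = 0.0585) and with every barcode (0.82, adjusted p = 0.0501). After thinning, 24.9% and 23.9% of adult cells, 6.30% and 4.64% of slice 1 day cells, 19.1% and 20% of slice 3 weeks cells and 2.07% and 2.39% of *in vitro* cells had a *Havcr2* UMI. In slice 1 day, before thinning, 13.2% and 10.0% of the cells high in neutrophil markers had one, against 20.7% and 19.6% of the rest. *In vitro* against slices the fitted differences were −0.79 ± 0.19, −2.11 ± 0.22 and −2.98 ± 0.19 for 1 day, 1 week and 3 weeks.

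*Cd86* was lower than adult in every cultured group, and lowest *in vitro*. Its level was 288 and 251 CPM in adult, 166 and 126 in slice 1 day, 97.8 and 89.6 in slice 1 week, 111 and 106 in slice 3 weeks, and 24.9 and 18.3 *in vitro*. All adult libraries lay above all others and both *in vitro* libraries below, with the slice groups between them. *Cd86* fell against adult by 0.89 ± 0.19, 1.52 ± 0.21, 1.31 ± 0.19 and 3.64 ± 0.20 on the log2 scale in slice 1 day, slice 1 week, slice 3 weeks and *in vitro* (adjusted p = 0.00227, 0.000444, 0.000376 and 3e-07). As UMIs per cell, the slice 1 day difference turned to 0.61, and slice 1 week and slice 3 weeks were −0.34 and −0.23 without a call. The slice 1 day call also ended in a fit without cells that carried 3 or more markers of another cell type (−0.52, adjusted p = 0.0968), which kept 7 cells of replicate 2 and so used replicate 1 alone for that group.

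Between slice times, no *Cd86* difference passed the test, with −0.63 ± 0.21 from 1 day to 1 week (adjusted p = 0.0818) and −0.42 ± 0.18 from 1 day to 3 weeks (adjusted p = 0.107). The first was called with the replicate number as a block (−0.64, adjusted p = 0.043) and with no filter on low counts (−0.71, adjusted p = 0.0108). The *Cd86* counts of slice 1 day were uneven between cells. Single cells held up to 39 and 23 *Cd86* UMIs in slice 1 day replicates 1 and 2, against 9 and 5 in adult, at greater depth per cell. Among slice 1 day cells high in neutrophil markers 4 of 68 and 19 of 110 had a *Cd86* UMI, against 54.2% and 57.9% of the rest.

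*Cd80*, the second CD28 ligand, was scarcer than in adult in all cultures. It was at 14.6 and 13.3 CPM in adult, 3.67 and 2.16 in slice 1 day, 2.96 and 0 in slice 1 week, 3.49 and 1.02 in slice 3 weeks, and 4.95 and 4.74 *in vitro*. Both adult libraries lay above the others, and the slice groups overlapped with each other. *Cd80* fell by 2.36 ± 0.49 in slice 1 day (adjusted p = 0.00235), 2.83 ± 0.48 in slice 3 weeks (adjusted p = 0.00102) and 1.53 ± 0.41 *in vitro* (adjusted p = 0.00846) on the log2 scale. The size in slice 3 weeks depended on the library, with −1.94 without slice 3 weeks replicate 2 and −3.76 without replicate 1, both called. The slice 1 week libraries held 3 and 0 UMIs of *Cd80*, a ratio to adult of 0.151 after scaling (95% exact counting interval 0.0310 to 0.446). *Cd80* was also called lower there (adjusted p = 0.0423), and that call ended without any 1 of 7 libraries, with an adjusted p of up to 0.18 (both adult, both slice 1 week and both *in vitro* libraries, and slice 1 day replicate 2). It also ended with the study identifier as a covariate (adjusted p = 0.0718) and with thinned cells (adjusted p = 0.216). The *in vitro* call ended without adult replicate 1 or either *in vitro* library (adjusted p up to 0.0878). As UMIs per cell the *in vitro* difference turned to 0.63 and the slice 1 day and slice 1 week calls ended (adjusted p = 0.16 and 0.143).

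Between slice times no *Cd80* difference passed the test. From 1 day to 3 weeks it was −0.47 ± 0.57 on the log2 scale (adjusted p = 0.562), but it was called lower without slice 3 weeks replicate 1 (−1.38, adjusted p = 0.0348) and turned to 0.40 without replicate 2 (adjusted p = 0.548). One adult and one slice 3 weeks library carried the study identifier TST11200 and the other 8 libraries TST11247, and within the latter the call was also made (−1.37, adjusted p = 0.0446). Slice 1 week stood to slice 1 day at a ratio of 0.826 (95% exact counting interval 0.163 to 2.62), and slice 3 weeks to slice 1 week at 0.785 (0.253 to 3.94).

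Against adult, the 5 genes other than *Lag3* gave 4 calls in slice 1 day, 1 higher (*Cd274*) and 3 lower. Of all 12155 genes tested there, 24.9% were called higher and 25.4% lower. In slice 1 week 3 of 5 were called, all lower, where 15% of all genes were called higher and 13.6% lower. In slice 3 weeks 3 of 5 were called, with *Cd274* higher and *Cd86* and *Cd80* lower (18% of all genes higher and 17.5% lower). *In vitro* 3 of 5 were called, *Havcr2*, *Cd86* and *Cd80*, all lower (22.4% of all genes higher and 28.5% lower). With shares of all genes this large, calls for 3 or 4 of 5 genes are no more than a count. The 4 comparisons share the adult libraries. With cells high in neutrophil markers left out, an alternative chosen after seeing the data, the counts were again 4, 3, 3 and 3 of 5. Leaving out cells with 3 or more markers of another type, and with them slice 1 day replicate 2 and slice 1 week replicate 1, ended the calls of *Cd86* and *Cd80* in slice 1 day, at log2 differences of −0.52 and −2.07 (adjusted p = 0.0968 and 0.0633). It also ended those of *Havcr2* in slice 1 week, at −0.92 (adjusted p = 0.0624), and of *Cd80* there (adjusted p = 0.198), where the library left held 0 UMIs of *Cd80*.

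**Figure D3:**
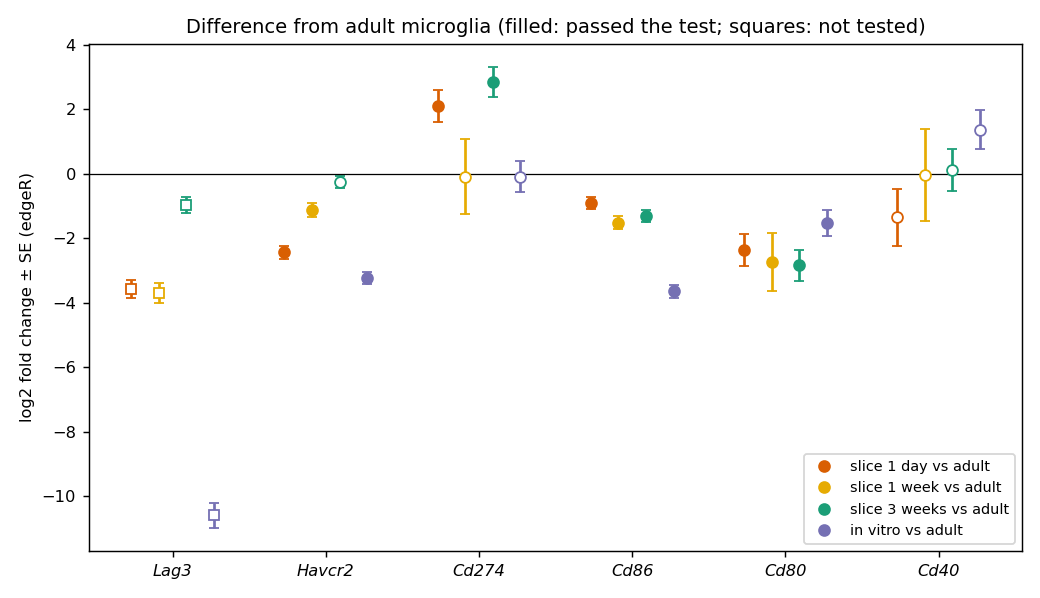
Fitted log2 fold change ± SE of each gene against adult in the 4 cultured groups, with filled circles for differences that passed the test (adjusted p under 0.05 and over 1.5-fold), open circles for those that did not and squares for *Lag3*, not tested, where the slice 1 week values of *Cd274*, *Cd80* and *Cd40* rest on 3, 3 and 2 UMIs. *Cd86* and *Cd80* lie below 0 throughout, and *Cd274* lies at 2.11 in slice 1 day and 2.86 in slice 3 weeks.

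*Cd274* was the gene of the 6 that rose against adult. Its level was 2.05 and 2.58 CPM in adult, 10.7 and 9.17 in slice 1 day, 1.98 and 2.56 in slice 1 week, 8.15 and 24.0 in slice 3 weeks, and 1.93 and 2.36 *in vitro*. Slice 1 day and slice 3 weeks lay above the other 3 groups, whose ranges overlapped, and the slice 3 weeks libraries differed from each other by more than the slice 1 day libraries. The slice 1 week values rested on 2 UMIs and 1 UMI.

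*Cd274* rose in slice 1 day by 2.11 ± 0.48 on the log2 scale (4.31-fold, adjusted p = 0.00393) and in slice 3 weeks by 2.86 ± 0.46 (7.25-fold, adjusted p = 0.000787), and by 1.90 without slice 3 weeks replicate 2 (adjusted p = 0.00172). *In vitro* it differed from adult by −0.08 (95% interval −1.15 to 0.98, adjusted p = 0.902), and by 2.09 as UMIs per cell. Slice 1 week stood to adult at a ratio of 0.954 (95% exact counting interval 0.190 to 2.96). The log2 ratio of slice 3 weeks to adult was 1.99 within study identifier TST11200 and 3.22 within TST11247.

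Between slice times no *Cd274* difference passed. Slice 1 week stood to slice 1 day at a ratio of 0.222 (95% exact counting interval 0.0453 to 0.665, adjusted p of the fit 0.178) and slice 3 weeks to slice 1 week at 9.26 (3.15 to 45.0, adjusted p of the fit 0.0848). From 1 day to 3 weeks the log2 difference was 0.75 ± 0.41 (adjusted p = 0.192). The differences of 3 weeks from 1 day and from 1 week were called without slice 3 weeks replicate 1 (adjusted p = 0.00194 and 0.00363), and that from 1 day to 1 week without either slice 3 weeks library (adjusted p down to 0.03). Without slice 3 weeks replicate 2 the difference from 1 day to 3 weeks turned to −0.26, so its direction rested on that library. The fitted log2 difference from 1 week to 3 weeks went from 2.94 to 1.99 without that library. With the study identifier as a covariate, 3 weeks differed from 1 day by 1.12 (adjusted p = 0.0166) and was also called against 1 week (adjusted p = 0.0154). As UMIs per cell both differences of 1 week were called (adjusted p = 0.0401 from 1 day and 0.0173 to 3 weeks). With no filter on low counts, the differences from 1 day to 1 week, 1 day to 3 weeks and 1 week to 3 weeks were all called (adjusted p = 0.0104, 0.0325 and 3.35e-05).

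In slice 1 day, 0 of 68 and 1 of 110 cells high in neutrophil markers had a *Cd274* UMI, against 7.78% and 7.41% of the other cells. After thinning, the share was 1.83% and 1.48% in slice 1 day, 1.06% and 3.82% in slice 3 weeks, 0.295% and 0.21% in adult, and 0.29% and 0.336% *in vitro*. *Plgrkt*, whose start lies next to that of *Cd274* in the window printed above, was at 112 and 115 CPM in adult, 165 and 155 in slice 1 day, 128 and 115 in slice 1 week, 161 and 184 in slice 3 weeks, and 106 and 115 *in vitro*. It differed from adult by 0.50 ± 0.14 on the log2 scale in slice 1 day (adjusted p = 0.00998, under 1.5-fold) and rose by 0.61 ± 0.14 in slice 3 weeks (adjusted p = 0.00524). Over the 10 libraries the log2 levels of both genes had a Pearson r of 0.957, the second highest for *Cd274* among 6012 genes.

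*Cd40* was near the limit of detection in most libraries. It was at 2.12 and 0.515 CPM in adult, 1.31 and 0.206 in slice 1 day, 1.98 and 0 in slice 1 week, 1.16 and 1.82 in slice 3 weeks, and 3.31 and 4.13 *in vitro*. Only the *in vitro* libraries, with 103 and 147 UMIs, lay above all others. The *in vitro* difference from adult was 1.37 ± 0.60 on the log2 scale and did not pass (95% interval 0.05 to 2.70, adjusted p = 0.073), and it was called without adult replicate 1 (2.93, adjusted p = 0.0222), slice 1 day replicate 2 or slice 3 weeks replicate 2. It was also called as UMIs per cell (3.44, adjusted p = 8.98e-08) and with no filter on low counts (1.54, adjusted p = 0.00283). No other difference of *Cd40* from adult or between slice times passed the test. The log2 difference in slice 1 day was −1.34 (95% interval −3.30 to 0.62). It turned to 0.16 without adult replicate 1 and was −2.74 without slice 1 day replicate 1. The 2 UMIs of slice 1 week gave a ratio of 0.925 to adult (95% exact counting interval 0.108 to 3.62) and of 2.75 to slice 1 day (0.279 to 14.5). The fitted log2 difference of slice 1 week from adult went from −0.03 to 1.47 without adult replicate 1. *In vitro* against slices, *Cd40* differed by 2.71 ± 0.79 for 1 day and 1.25 ± 0.58 for 3 weeks on the log2 scale, and stood to slice 1 week at a ratio of 2.63 (0.719 to 21.8). The first of these was 1.55 without slice 1 day replicate 2 and 4.11 without replicate 1.

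Of the 5 genes other than *Lag3*, *Havcr2* alone was called between slice times, in all 3 comparisons. Of all genes 10.2% were called in either direction between 1 day and 1 week, 26.8% between 1 day and 3 weeks and 5.73% between 1 week and 3 weeks. Without cells carrying 3 or more markers of another type, its call between 1 day and 3 weeks held, and those between 1 day and 1 week (1.27, adjusted p = 0.186) and between 1 week and 3 weeks (0.67, adjusted p = 0.395) ended, with 1 slice 1 week library left. *In vitro* against slice 1 day, 1 week and 3 weeks, *Cd86* differed by −2.75 ± 0.20, −2.13 ± 0.21 and −2.33 ± 0.19 on the log2 scale. *Cd80* differed by 0.83 ± 0.50 for 1 day and 1.3 ± 0.47 for 3 weeks, the latter 0.53 without slice 3 weeks replicate 2 and 2.23 without replicate 1. *Cd274* differed by −2.19 ± 0.44 for 1 day and −2.94 ± 0.42 for 3 weeks, the latter −1.86 without slice 3 weeks replicate 2. Against slice 1 week, the ratios were 2.26 for *Cd80* (95% exact counting interval 0.767 to 11.03) and 1.01 for *Cd274* (0.338 to 4.95). Relative to depth, *Lag3*, *Havcr2* and *Cd86* were thus below each slice time *in vitro*, and *Cd80* and *Cd40* were not. As UMIs per cell *Havcr2* was near slice 1 day, at −0.15, while *Cd86* was at −2.11, −1.15 and −1.26 against the 3 slice times. In the depth-scaled fit *Havcr2* against slice 1 day was −0.56 without slice 1 day replicate 1 and −0.54 without *in vitro* replicate 1.

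Slice 3 weeks cells were split by a UMI of *P2ry12*, a homeostatic microglia gene, or of *Gpnmb*, a gene of phagocytic and disease-associated microglia. After thinning, *Lag3* had a UMI in 45.2% and 50.3% of the cells with *P2ry12* and in 29.0% and 31.4% of those without. It had one in 24.5% and 26.6% of the cells with *Gpnmb* and in 41.9% and 43.5% of those without. The 95% intervals, which cover counting error within a library only, did not overlap in either library for either split. No difference between these cells was tested. *Havcr2* had a UMI in 19.7% and 22.7% of cells with *P2ry12* and 18% and 16.8% without, and *Cd86* in 17.4% and 18.7% with and 14.0% and 14.2% without. *Cd274* leaned the other way, with 0.822% and 2.85% in cells with *P2ry12* and 1.5% and 5.02% in cells without, and the intervals parted in replicate 2 alone.

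**Figure D4:**
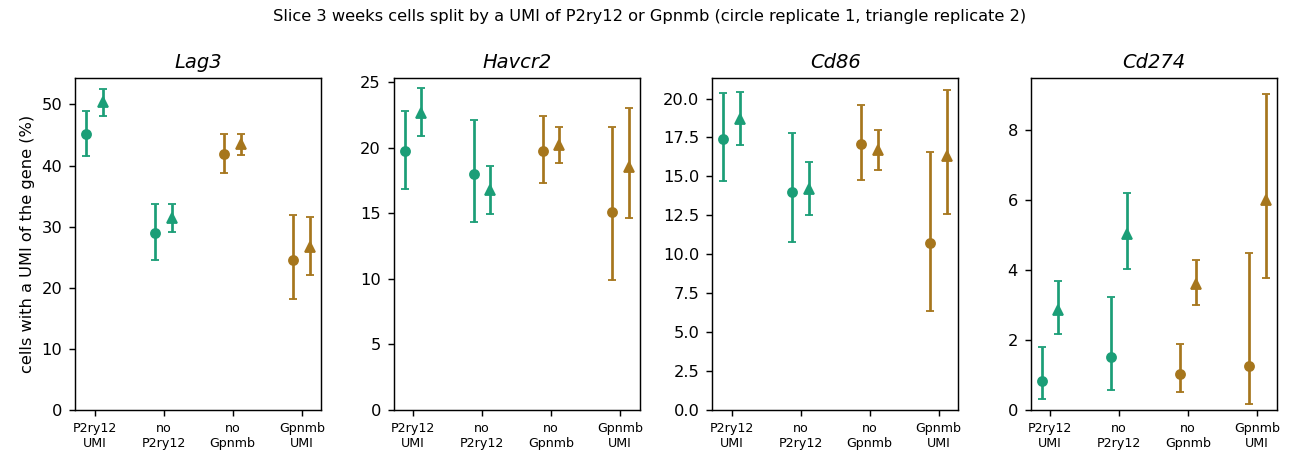
Share of slice 3 weeks cells with a UMI of *Lag3*, *Havcr2*, *Cd86* or *Cd274*, in cells with and without a UMI of *P2ry12* (green) or *Gpnmb* (brown), for replicate 1 (circles) and replicate 2 (triangles) with 95% exact binomial intervals that cover counting error only. *Lag3* is seen in 45.2% and 50.3% of cells with *P2ry12* and in 24.5% and 26.6% of cells with *Gpnmb*.

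Co-detection in slice 3 weeks cells is given as a description, and its intervals also cover counting error only. After thinning, *Lag3* had a UMI in 47.5% and 50.8% of the cells with *Cd86* and in 37.9% and 40.1% of those without, and these intervals parted in replicate 2. For *Havcr2* the intervals overlapped in both libraries, with *Lag3* in 39.8% and 43.2% of cells with *Havcr2* and in 39.4% and 41.5% of those without. In adult cells *Lag3* was seen in 71.0% and 73.7% of cells with *Havcr2* and in 67.5% and 74.4% of those without.

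The known partners of the 6 molecules followed no single course. *Ctla4* and *Cd40lg*, for the second receptor of CD80 and CD86 and for the ligand of CD40, had no UMI in any library. *Cd28* had none in adult, 12 and 28 UMIs in slice 1 day, 3 and 0 in slice 1 week, 25 and 16 in slice 3 weeks, and 1613 and 2303 *in vitro* (51.8 and 64.6 CPM). *In vitro* it was thus at least 419-fold higher than adult, against the limit of 3 UMIs over both adult libraries, while the 4 T and NK cell markers with a row in the tables summed to at most 0.118 CPM there. *Pdcd1*, for PD-1, was at 5.27 and 5.41 CPM in adult, 1.31 and 4.12 in slice 1 day, 2.46 and 2.38 in slice 3 weeks and 0 in both *in vitro* libraries, at least 118-fold lower. *Pdcd1lg2*, for the other PD-1 ligand, had 1 UMI in adult and 29 in slice 1 day, a ratio of 45.9 after scaling (95% counting interval 7.62 to 1876).

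Of the ligands of LAG3 and TIM-3, *Lgals3*, for galectin-3, was at 3.81 and 3.99 CPM in adult and at 1874 and 1546 in slice 1 day, 675 and 1301 in slice 3 weeks and 1282 and 2509 *in vitro*. It rose by 8.78 ± 0.59, 7.99 ± 0.57 and 8.92 ± 0.59 on the log2 scale (adjusted p = 2.11e-06, 6.37e-06 and 8.64e-07). *Lgals9*, for galectin-9, was at 216 and 255 CPM in adult and fell by 1.22 ± 0.17 in slice 1 day (adjusted p = 0.000187) and 0.89 ± 0.17 in slice 3 weeks (adjusted p = 0.00208), with −0.45 ± 0.17 *in vitro* (adjusted p = 0.041, under 1.5-fold). MHC class II *H2-Aa* was at 19.8 and 13.1 CPM in adult, 23.9 and 1.75 in slice 1 day and 0 in slice 1 week, and had 2 and 32 UMIs in slice 3 weeks and 3 and 0 *in vitro*. *Cd74*, for the class II invariant chain, rose in slice 1 day by 1.42 ± 0.33 (adjusted p = 0.00452) and fell *in vitro* by 2.17 ± 0.34 (adjusted p = 0.000347).

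The neighbours of *Lag3* on chromosome 6 did not share its course. *Ptms*, 1975 bases away, was at 172 and 136 CPM in adult, 123 and 121 in slice 1 day, 201 and 271 in slice 1 week, 217 and 170 in slice 3 weeks and 232 and 246 *in vitro*. It rose *in vitro* against adult by 0.63 ± 0.18 on the log2 scale (adjusted p = 0.0135), where *Lag3* was nearly absent. *Cd4*, 16139 bases away, had 0 and 1 UMIs in adult and 102 and 140 *in vitro*, a ratio of 77.6 (95% counting interval 13.8 to 3079).

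Gene lists of the pathways around these molecules were counted in 3 comparisons with adult. Of all genes, 24.9%, 18% and 22.4% rose and 25.4%, 17.5% and 28.5% fell in slice 1 day, slice 3 weeks and *in vitro*, and as UMIs per cell 67.9%, 55.9% and 80.4% rose and 3.48%, 2.76% and 4.69% fell. Every list count below is to be read against these shares, and nothing particular to a list was tested. The 7 tested B7 family ligands included *Cd274*, *Cd86* and *Cd80*, so their counts repeat calls given above. Of the 7, 2 rose and 4 fell in slice 1 day, 1 rose and 4 fell in slice 3 weeks, and 5 fell *in vitro*. Their medians were −0.89, −1.11 and −2.52 on the log2 scale against −0.06, −0.03 and −0.11 over all genes. The slice 1 day median was the value of *Cd86* itself. *Vsir*, for the inhibitory ligand VISTA, was at 1582 and 1240 CPM in adult and 186 and 147, 450 and 427, and 262 and 224 in these 3 groups. It fell by 3.09 ± 0.20, 1.69 ± 0.19 and 2.54 ± 0.20, and *Icosl*, for the ICOS ligand, by 2.41 ± 0.22, 1.11 ± 0.20 and 2.91 ± 0.21 on the log2 scale, with adjusted p at or under 0.00154. As UMIs per cell the list's calls were 2 higher and 2 lower, 2 higher and 1 lower, and 1 higher and 1 lower.

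Of 10 tested receptors of B7 ligands and other co-inhibitory receptors, *Havcr2* among them and *Lag3* left out, 3 rose and 5 fell in slice 1 day (of all genes 24.9% and 25.4%), 1 rose and 3 fell in slice 3 weeks (18% and 17.5%), and 3 rose and 5 fell *in vitro* (22.4% and 28.5%). Their medians were −1.04, −0.27 and −0.90 on the log2 scale, and as UMIs per cell 4, 5 and 6 rose and 2, 1 and 4 fell. *Icos* had 50 UMIs in adult and 0 in slice 1 day, at least 10.5-fold lower. *Lair1*, for an inhibitory collagen receptor, fell in slice 1 day by 1.49 ± 0.16 on the log2 scale (adjusted p = 3.26e-05), and *Cd300a*, for an inhibitory receptor of myeloid cells, fell in slice 3 weeks by 1.39 ± 0.16 (adjusted p = 0.000106). *Timd4*, for a phosphatidylserine receptor of macrophages, was at 0 in adult and had 125 UMIs *in vitro*, at least 13.4-fold higher.

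The 13 tested TNF superfamily co-stimulatory genes included *Cd40*. In slice 1 day, slice 3 weeks and *in vitro*, 24.9%, 18% and 22.4% of all genes rose and 25.4%, 17.5% and 28.5% fell. Of the 13, 4 rose and 4 fell in slice 1 day, 2 rose and 5 fell in slice 3 weeks, and 1 rose and 6 fell *in vitro*. Their medians were −0.064, −0.39 and −0.56 on the log2 scale, and as UMIs per cell 8, 3 and 8 rose and 2, 1 and 1 fell. *Tnfrsf9*, for the co-stimulatory receptor 4-1BB, had 2 UMIs in adult, 118 and 171 in slice 1 day, 16 and 868 in slice 3 weeks, and 1 and 3 *in vitro*. In slice 3 weeks it was at 2.07 and 40.4 CPM, and replicate 2 was also the higher of both libraries for *Cd274*. *Tnfsf9*, for its ligand, rose in slice 3 weeks by 1.98 ± 0.36 on the log2 scale (adjusted p = 0.00157), and *Ltb*, for lymphotoxin beta, fell by 4.32 ± 0.50 there and 5.32 ± 0.49 *in vitro* (adjusted p = 0.000115 and 8.66e-06).

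Of 12 tested ligands and partners of LAG3 and TIM-3 and their shedding proteases, 2 rose and 3 fell in slice 1 day, 3 rose and 4 fell in slice 3 weeks, and 2 rose and 7 fell *in vitro*. Of all genes 24.9%, 18% and 22.4% rose and 25.4%, 17.5% and 28.5% fell. The list's medians were −0.36, −0.43 and −1.45 on the log2 scale, and as UMIs per cell 7, 6 and 6 rose and 0, 2 and 4 fell. *Ceacam1*, for a TIM-3 partner, fell in slice 1 day by 2.30 ± 0.31 (adjusted p = 0.000164).

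Of the 20 genes of CD40 signalling, 2 rose and 8 fell in slice 1 day, 9 fell in slice 3 weeks, and 1 rose and 11 fell *in vitro* (of all genes 24.9%, 18% and 22.4% rose and 25.4%, 17.5% and 28.5% fell). Their medians were −0.34, −0.38 and −0.68 on the log2 scale. As UMIs per cell 14, 9 and 16 rose and 1, 0 and 0 fell, where 67.9%, 55.9% and 80.4% of all genes rose. *Traf1*, for an adaptor induced by NF-kB, had 2 UMIs in adult and 248 in slice 1 day, a ratio of 196 (95% counting interval 53.8 to 1631). *Traf5*, for an adaptor of the CD40 receptor, had log2 differences of −2.51 ± 0.22, −1.71 ± 0.20 and −1.98 ± 0.19 in the 3 groups, and *Nfkb1*, for an NF-kB subunit, of −1.79 ± 0.15 in slice 1 day and −1.38 ± 0.15 in slice 3 weeks, with adjusted p at or under 0.000114. *Nfkb2* rose by 1.00 ± 0.19 in slice 1 day (adjusted p = 0.00133).

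Of 11 tested nectin and SLAM family genes, 3 rose and 6 fell in slice 1 day, 4 rose and 3 fell in slice 3 weeks, and 1 rose and 4 fell *in vitro* (of all genes 24.9%, 18% and 22.4% rose and 25.4%, 17.5% and 28.5% fell). Their medians were −0.70, 0.070 and −0.11 on the log2 scale, and as UMIs per cell 8, 8 and 6 rose and none fell. *Slamf7* had 3 UMIs in adult and 225 in slice 3 weeks, a ratio of 55.0 (95% counting interval 18.6 to 269), of which 206 were in replicate 2. *Slamf8* fell by 1.82 ± 0.34, 1.95 ± 0.33 and 2.97 ± 0.33 in the 3 groups, with adjusted p at or under 0.00118.

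The genes whose log2 level over the 10 libraries was most like that of each gene were ranked among the 6011 or 6012 genes whose mean log2 CPM reached 4. The libraries share groups and depth, so the correlations are descriptions. *Lag3* was most like *Il6st* (Pearson r = 0.989), *Golm1* (0.988) and *Jam2* (0.988). *Il6st*, for the shared receptor chain of the IL-6 family, was at 79.2 and 72.6 CPM in adult, 33.0 and 31.0 in slice 1 day, 49.2 and 75.9 in slice 3 weeks and 9.41 and 9.12 *in vitro*. *Havcr2* was most like *Tnfrsf21* (0.989), for death receptor 6, *Ifitm10* (0.988) and *Pde3b* (0.986). *Cd274* was most like *Calu* (0.963), *Plgrkt* (0.957) and *Eprs* (0.946), and *Cd86* like *Adora3* (0.979), *BC035044* (0.975) and *Ets1* (0.972). *Cd80* was most like *Ccdc71* (0.986), *1110059G10Rik* (0.957) and *Oser1* (0.948).

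*Cd40* was most like *Herc1* (0.933) and the MHC class I genes *H2-K1* (0.913) and *H2-D1* (0.898). *H2-K1* was at 382 and 229 CPM in adult and 556 and 518 *in vitro*, and *H2-D1* at 1045 and 764 in adult and 1742 and 1664 *in vitro*. Reads of these 2 near-identical genes may be split between them. Among the 6 genes themselves, *Lag3* had a Pearson r of 0.914 with *Havcr2* and 0.923 with *Cd86* over the 10 libraries, and of 0.353, 0.154 and −0.48 with *Cd274*, *Cd80* and *Cd40*.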

How the data were processed

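The authors sequenced sorted microglia as 10x Genomics 3′ v2 libraries and processed the reads with Cell Ranger 1.3.0 against mm10 at default parameters and with its aggregate function, per the labels and methods. The files deposited by the authors hold whole-number UMI counts, genes by barcodes, in a separate table for each library. Whether they precede the aggregate step is not given in the sources used here. A 3′ UMI count is not per length, so levels were not compared between genes.

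Barcodes were kept at up to 5% of UMIs from mitochondrial genes, at least 400 genes and at most 30000 UMIs, the limits the study set before clustering, which left 19059 of 19637 barcodes. The study also removed outlier cells by t-SNE before its own comparisons. That step was not repeated here. More cells were kept than the study counted, most clearly in slice 1 week, and the part of that step in this was not tested. Doublets were not called. Counts were summed per library and fitted with edgeR 4.0.16 (glmQLFit, glmQLFTest, TMM factors, filterByExpr with a minimum count of 10, R 4.3.3) in 1 model of the 5 groups over 12155 genes, at a biological coefficient of variation of 18.2%. The 5 groups shared 1 estimate of the spread. p-values were adjusted by Benjamini-Hochberg over all genes, and a gene was called at adjusted p under 0.05 and a fold change over 1.5. The SE was taken from the fold change and its F value, and 95% intervals cover the fit. Thinning to 1800 UMIs kept 16910 cells, and 1909 of 3527 in adult replicate 2. The script was tested on simulated counts.

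The 6 genes and all lists were chosen with earlier results of these data known. One further gene list is not reported here. Named genes were the 6, their partners and neighbours, the 3 genes most like each over the libraries, and for each list up to 2 called genes that rose and 2 that fell by the largest fold. A planned test of *Lag3* between slice times was dropped, because the selection used its slice levels. Genes with at most 3 UMIs in a group have a ratio with its exact counting interval or a bound against 3 counts per group in place of the fitted fold. Alternatives were other size factors, no filter, every barcode, thinned cells, UMIs per cell, DESeq2 1.42.0, cells left out by markers, the study identifier, a replicate block and each library left out in turn. Promoters are RefSeq windows, positions are GENCODE.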

Additional observations from a re-analysis of the deposited data

How the results depend on the processing

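Of the fitted differences of the 6 genes under all alternatives, 1184 kept their side of the threshold (untested ones stayed within 1 SE), 35 lost and 26 gained a call, 5 reversed with a call in either fit and 70 untested ones moved. Of the 1184, 55 turned sign with no call in either fit or no test, over 13 differences of genes at low counts or near 0, 26 of them with 1 library left out. Of the 70, 3 turned sign, *Lag3* in slice 3 weeks against adult as UMIs per cell (0.14), *Lag3* from slice 1 day to slice 1 week without slice 1 day replicate 1 (0.27) and *Cd274* *in vitro* against slice 1 week with thinned cells. The 5 reversals with a call came with UMIs per cell, at log2 differences from adult of 0.61 for *Cd86* in slice 1 day, 0.080 and 0.84 for *Havcr2* in slice 1 week and slice 3 weeks, and 2.09 and 0.63 for *Cd274* and *Cd80* *in vitro*, and the whole scale shifts in that setting. The number of the 5 genes other than *Lag3* called against adult was 4 in slice 1 day but 2 with UMIs per cell and 2 without cells carrying 3 markers of another type. It was 3 in slice 1 week but 0 and 1 in these settings, and 1 to 3 with 1 library left out (1 without slice 1 week replicate 1). Between slice 1 day and slice 1 week 1 of these 5 genes was called (*Havcr2*, but *Cd274* in its place with UMIs per cell, as between slice 1 week and slice 3 weeks), against 3 with no filter on low counts, 0 with thinned cells, 0 without other-marker cells, 2 in the libraries with study identifier TST11247 only, and 0 to 2 with 1 library left out (0 without slice 1 day replicate 2 or slice 1 week replicate 1, 2 without slice 3 weeks replicate 1 or 2). Between slice 1 day and slice 3 weeks it was 1, against 3 within that study identifier (*Cd274* and *Cd80* added), 2 with no filter or with the identifier as a covariate, and 1 to 3 with 1 library left out (3 without slice 3 weeks replicate 1). Between slice 1 week and slice 3 weeks it was 1, against 0 with every barcode, 0 without other-marker cells, 2 with no filter, with the study identifier as a covariate, within TST11247 and with DESeq2, and 0 to 2 with 1 library left out (2 without slice 3 weeks replicate 1, and 0 without either adult library, either slice 1 week library or slice 3 weeks replicate 2). The cause was not tested. The setting without other-marker cells could not use slice 1 day replicate 2 (7 cells left) or slice 1 week replicate 1 (0 left).

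The replicate numbers did not pair the samples, with correlations of same-numbered deviations between −0.159 and 0.256 over 6012 genes. With the replicate block, 2 genes were called between slice 1 day and slice 1 week (*Cd86* added) and 0 between slice 1 week and slice 3 weeks (*Havcr2* lost).

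Over all genes, calls against adult in slice 1 week were 3473, but 1771 with thinned cells, 5511 with UMIs per cell, 1161 without other-marker cells and 1445 without slice 1 week replicate 1. With UMIs per cell they were 7136 against 4310 in slice 3 weeks and 10341 against 6183 *in vitro*, and higher and lower calls were 8252 and 423 in slice 1 day (against 3023 and 3087), 5347 and 164 in slice 1 week (1822 and 1651), 6800 and 336 in slice 3 weeks (2182 and 2128) and 9771 and 570 *in vitro* (2720 and 3463). With library size alone they were 1516 and 2504 in slice 1 week, 1707 and 3063 in slice 3 weeks and 2016 and 4724 *in vitro*. Between slice 1 day and slice 1 week they were 1237, but 211 with thinned cells, 1977 with no filter, 766 with UMIs per cell (163 higher and 603 lower, against 598 and 639, and 473 and 826 with library size alone), 5 without other-marker cells, and down to 218 with 1 slice library left out (without slice 1 week replicate 1). Between slice 1 day and slice 3 weeks they were 3254, but 931 without other-marker cells and 1442 without slice 1 day replicate 2, and with UMIs per cell 326 were higher and 2067 lower, against 1694 and 1560. In that setting they were 85 and 510 between slice 1 week and slice 3 weeks, against 272 and 425. Between slice 1 week and slice 3 weeks they were 697, but 345 with thinned cells, 1728 with no filter, 1276 within study identifier TST11247, 0 without other-marker cells, and 46 to 1246 with 1 library left out (without slice 1 week replicate 1 and slice 3 weeks replicate 1). The slice 1 week libraries, with 148 and 61 cells, limit what can be told of *Cd274*, *Cd80* and *Cd40* at that time.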
